A study of Drosophila melanogaster with 8 samples.

Results

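Mitochondrial complex I was examined here in head RNA of Drosophila melanogaster females that were or were not in diapause. Its genes were taken as those whose symbol on the array annotation starts with ND-, the fly naming of NADH dehydrogenase subunits. The annotation gave 32 such genes on 35 probe sets, out of 11982 genes with a probe set of their own. A gene with several probe sets was represented by the brightest on average. The choice used gene symbols and mean levels over all arrays, not the difference between the groups. All 32 genes encode subunits or close copies of subunits. Assembly factors of complex I carry other symbols and are described further on as a separate list.

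Complex I takes electrons from NADH and is the main entry to the respiratory chain. Its N module oxidizes NADH, its Q module hands the electrons through iron-sulfur clusters to ubiquinone, and its membrane arm pumps protons across the inner mitochondrial membrane. Most subunits are encoded in the nucleus and the proton-pumping core in mitochondrial DNA. Photoreceptors and neurons, which make up much of the fly head, consume ATP at a high rate.

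The females were of the wild-type strain Canton S, collected in the first 8 h after eclosion and then kept at 12.5 °C with 14 h of light and 10 h of dark a day for 12 days. Both groups shared strain, age, temperature and light cycle. Ovaries were dissected to sort them into diapause and non-diapause, so a group is defined by the ovary and measured in the head. Each group had 4 one-color arrays, and the labels do not name separate cultures behind them. The p-values therefore reflect the spread of arrays only, and this spread may be technical.

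Of 40 ND- genes in the reference gene table, 7 were on no listed probe set and were not analyzed here, among them ND-24, ND-23, ND-30 and ND-49 of the conserved core. ND-AGGG shared its probe set with CG40472 and was not counted as a member. That shared probe set had a mean of 12.54 ± 0.09 (SD, n = 4) on the diapause arrays and 12.45 ± 0.07 on the non-diapause arrays, a difference of 0.094 with a 95% interval of -0.044 to 0.23. No mitochondrially encoded ND gene of a list of 7 had a listed probe set.

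The series held 18769 probe sets besides controls, on a log2 scale from a floor of 2.16 to 15.7. Pearson's r between arrays over these probe sets was 0.976 to 0.998, a description of likeness across probe sets and not across samples. With the test used, limma with Benjamini-Hochberg adjustment over all of them, 0 passed an adjusted p of 0.05. At unadjusted p under 0.05 there were 393 lower and 170 higher in diapause. The mean of 5 fat body markers was 15.06 to 15.15 on the diapause arrays and 15.24 to 15.41 on the non-diapause arrays. All 5 were lower in diapause, without overlap of the list mean. The mean of 4 muscle markers was 11.43 ± 0.13 and 11.14 ± 0.16, higher in diapause for all 4 and with overlap of the groups. Midgut markers stood at 2.39 on non-diapause 3 and at 12.11 to 14.24 on the other arrays. Markers of photoreceptors (trp at 13.54 to 14.19, the 1 of 3 listed that was matched) and glia (repo at 8.90 to 9.35) were present. The ovary genes osk, vas and Cp36 lay near the floor on every array. The mean of 3 neuron markers ran from 7.81 on non-diapause 2 to 9.04 on diapause 2, with overlap of the groups. Of these, nSyb was lower in diapause (-0.20), and elav (0.34) and brp (0.35) were higher. For the complex I mean given below, non-diapause 2 was the highest and diapause 2 the lowest array. The part of fat body, muscle, gut or neuron RNA in the values below was not tested. In whole heads fewer cells of a type cannot be told apart from less RNA per cell.

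Of the 32 complex I genes, 25 had a mean of at least 6 on the log2 scale and are called measured below. Their means ran from 10.81 to 14.72, well inside the bright part of the scale. The remaining 7 were dim. In diapause heads 23 of the 25 measured genes were lower and 2 were higher, with a median difference of -0.056 (diapause minus non-diapause, log2), and no gene passed the test. The differences ran from -0.10 to 0.045, that is from -6.91% to 3.16% on the linear scale. Of all 7593 probe sets with a mean of 6 or more, called bright below, 48.7% were lower, with a median difference of 0.0039, and of all tested probe sets 37.6% were lower. The genes share the same arrays, so the 23 are not separate observations. The count of lower genes was also 23 after a second quantile normalization and after centering on probe sets above a mean of 10. Centering each array on its median lowered every difference by the same amount, so that 25 were lower, while the median of the bright probe sets was also below 0, at -0.058. It was 20 without non-diapause 2, and the median difference then was -0.036. Without non-diapause 3, the array that lacked the midgut markers, 22 were lower and the median was -0.050.

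**Figure D1:**
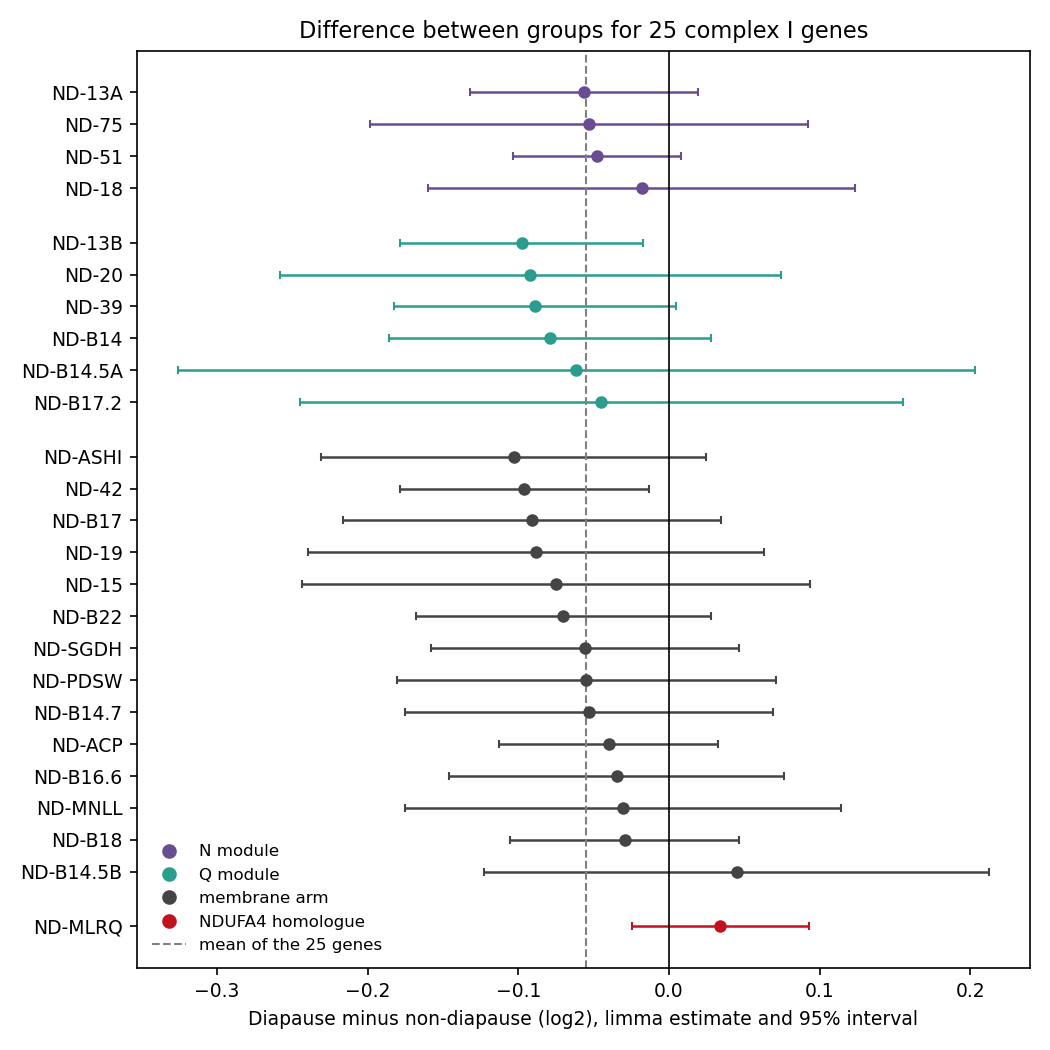
Difference between diapause and non-diapause heads for the 25 measured complex I genes (x axis, log2 units), with limma estimates as points and 95% intervals as bars, grouped by part of the complex. Of the 25 points 23 lie below 0, most intervals cross 0, and that of ND-MLRQ does not reach the dashed line at the mean difference of -0.055.

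Read gene by gene, the limma test gave adjusted p = 1 for all 32 members. At unadjusted p under 0.05 there were 2 members, ND-13B and ND-42, both lower. The background at that threshold was 2.09% lower and 0.906% higher among all tested probe sets. Among the bright probe sets it was 4.7% lower and 1.8% higher, so that 2 of 25 was not far above it. At p under 0.01, the threshold of the study, there were 0 members, with a background of 0.767% of all and 1.78% of the bright probe sets. The groups stood apart without overlap in 0 of the 25 genes. Of the bright probe sets 3.17% were separate and lower and 1.15% separate and higher, and of all tested probe sets 1.44% and 0.554%. The intervals were narrow in this fit over all probe sets. Half-widths of the 95% intervals had a median of 0.12 for the 25 genes and 0.29 for all bright probe sets. Taken over the 25 genes, the intervals reached from -0.33 to 0.21, that is from -20.2% to 15.9%. For 23 genes the interval included 0. These intervals depend on the probe sets in the fit. With a minimum mean of 6, limma gave unadjusted p = 0.128 for ND-13B in place of 0.0249. For ND-42 it gave 0.136 in place of 0.029, and 0 of the 25 genes were then under 0.05.

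Averaged over the 25 genes, complex I stood at 12.03, 11.94, 11.98 and 11.97 on diapause arrays 1 to 4 and at 11.99, 12.11, 12.04 and 11.99 on non-diapause arrays 1 to 4. Non-diapause 2 was the highest and diapause 2 the lowest array, and the groups overlapped, since non-diapause 1 and 4 lay within the diapause range. The group means were 11.98 ± 0.04 on the diapause arrays and 12.03 ± 0.06 on the non-diapause arrays (SD, n = 4). Their difference of -0.055, or -3.76% on the linear scale, was small, about as large as the SD of the non-diapause arrays. Over all 32 genes, with the dim ones included, the mean was 9.91 ± 0.03 and 9.96 ± 0.05.

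The spread of this mean came from many genes moving the same way on the same array. Of the 25 genes, 17 had their highest value on non-diapause 2, and 24 lay above their own mean there. On non-diapause 3, 22 were above their mean. The other non-diapause arrays went the opposite way, with 17 genes below their mean on non-diapause 1 and 16 on non-diapause 4. On diapause 1, 18 genes were above their mean. Diapause 2 held the lowest value of 10 genes and diapause 3 that of 9, and 20 of 25 genes were below their mean on diapause 2 and on diapause 4. The median deviation of the 25 genes was 0.094 on non-diapause 2 and -0.072 on diapause 2. For all probe sets above a mean of 10 it was 0.021 and -0.0096 on these arrays.

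**Figure D2:**
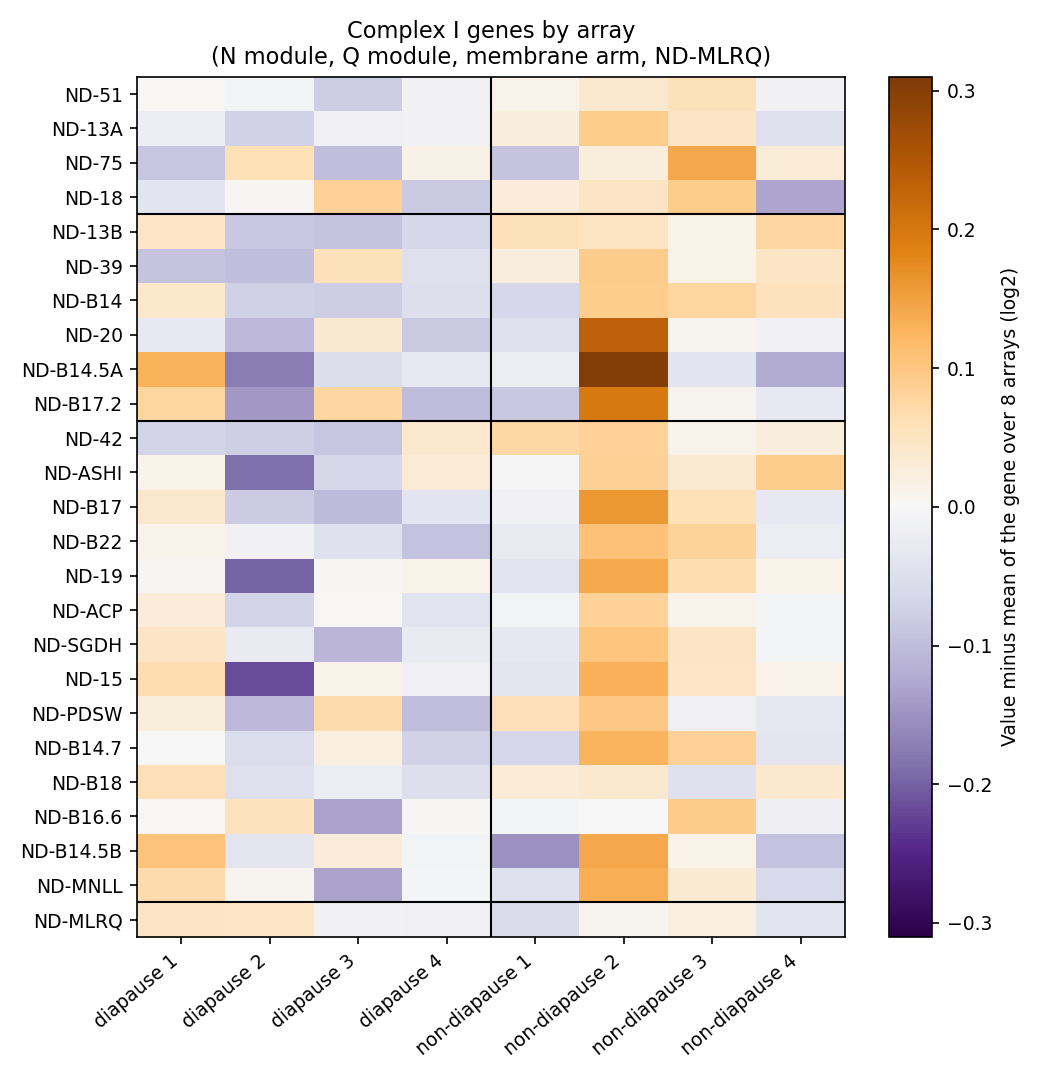
Deviation of each measured complex I gene (rows) from its own mean over the 8 arrays (columns), in log2 units, with orange above and purple below the mean. The column of non-diapause 2 is orange in 24 of 25 rows and that of diapause 2 purple in 20, and the darkest cells are ND-B14.5A and ND-20 on non-diapause 2.

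Even with these shared shifts included, the genes were steady. For the 23 measured genes with a mean between 11 and 13, the SD over the 8 arrays had a median of 0.076. The median for all 975 probe sets in the same range was 0.17. The least variable measured gene was ND-MLRQ, with an SD of 0.037, and the most variable was ND-B14.5A, with 0.15. ND-MLRQ was also the brightest member, with a mean of 14.72 on a scale that ends at 15.7. Whether its SD depends on that level was not tested.

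The N module binds NADH and holds the flavin. The list used here placed 4 measured genes in it, and all 4 were lower by small amounts (median -0.051, 0 at unadjusted p under 0.05). ND-51 encodes the subunit with the NADH and flavin site. Its values were 12.48, 12.47, 12.40 and 12.47 on the diapause arrays and 12.49, 12.52, 12.54 and 12.47 on the non-diapause arrays. The groups overlapped by a small margin at non-diapause 4, and the difference was -0.048 ± 0.023 (SE, interval -0.10 to 0.0077, limma adjusted p = 1). It was -0.030 without diapause 3. ND-75 encodes the large iron-sulfur subunit next to it. It was 11.24, 11.39, 11.23 and 11.34 on the diapause arrays and 11.24, 11.35, 11.47 and 11.36 on the non-diapause arrays. Arrays of both groups sat at its lower end, and the difference of -0.053 had an interval of -0.20 to 0.092. It was -0.015 without non-diapause 3 and -0.093 without non-diapause 1. ND-18, the homolog of the assembly-sensitive subunit NDUFS4, differed by -0.018, and ND-13A, the NDUFS6 homolog, by -0.057.

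The Q module carries the last iron-sulfur cluster and the ubiquinone site. The 6 genes with a probe set that were placed in it here were all measured and lower. Their median was the lowest of the 3 parts as listed (-0.084, 1 of 6 at unadjusted p under 0.05). Genes were placed in the parts by a list used here, and the counts and medians by part depend on it. The placement of accessory subunits such as ND-B14, ND-B14.5A and ND-B17.2 in this module is that of the list and was not tested. That the parts differ was not tested. ND-13B, the NDUFA5 homolog, is an accessory subunit of this module. It was 10.85, 10.72, 10.72 and 10.75 on the diapause arrays and 10.87, 10.86, 10.82 and 10.89 on the non-diapause arrays. Only diapause 1 reached into the non-diapause range. The means were 10.76 ± 0.06 and 10.86 ± 0.03, and the difference was -0.098 ± 0.033 (SE, interval -0.18 to -0.017, limma adjusted p = 1).

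ND-20, which binds the last cluster before ubiquinone, is the 1 core subunit of the Q module with a probe set. It was 12.23, 12.16, 12.30 and 12.18 on the diapause arrays and 12.21, 12.49, 12.27 and 12.25 on the non-diapause arrays. Non-diapause 2 stood above all other arrays, and the difference of -0.092 was -0.030 without it. ND-39, the NDUFA9 homolog, differed by -0.089 (interval -0.18 to 0.0044) and ND-B14, the NDUFA6 homolog, by -0.079.

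ND-B14.5A and ND-B17.2, homologs of NDUFA7 and NDUFA12, varied most within this module. ND-B14.5A was 11.61, 11.30, 11.43 and 11.45 on the diapause arrays and 11.46, 11.78, 11.44 and 11.35 on the non-diapause arrays. Its highest value was again on non-diapause 2 and its lowest on diapause 2, with a difference of -0.062 that turned to 0.030 without non-diapause 2. ND-B17.2 was 11.95, 11.73, 11.95 and 11.77 on the diapause arrays and 11.79, 12.07, 11.88 and 11.84 on the non-diapause arrays. The difference of -0.045 turned to 0.014 without non-diapause 2, and the groups overlapped over most of their range.

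In the membrane arm 13 of 14 measured genes were lower (median -0.055, 1 lower at unadjusted p under 0.05). All are accessory subunits, as the proton-pumping core of this arm is mitochondrially encoded. ND-42, the NDUFA10 homolog, was 12.49, 12.49, 12.48 and 12.60 on the diapause arrays and 12.64, 12.65, 12.57 and 12.58 on the non-diapause arrays. Only diapause 4 lay within the non-diapause range, and the difference was -0.096 ± 0.034 (SE, interval -0.18 to -0.014, limma adjusted p = 1). ND-ASHI, the NDUFB8 homolog, had the largest difference of all members. It was 12.21, 12.01, 12.13 and 12.23 on the diapause arrays and 12.19, 12.28, 12.23 and 12.29 on the non-diapause arrays. Diapause 2 stood low, and without it the difference of -0.10 (interval -0.23 to 0.025) was -0.058.

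The other genes of the arm followed in order of size. ND-B17 (-0.091), ND-19 (-0.088), ND-15 (-0.075) and ND-B22 (-0.070) are homologs of NDUFB6, NDUFA8, NDUFS5 and NDUFB9. ND-SGDH (-0.056), ND-PDSW (-0.055) and ND-B14.7 (-0.053) lay at the mean of the complex. ND-ACP, the mitochondrial acyl carrier protein that also serves lipoate and iron-sulfur cluster synthesis, differed by -0.040. ND-B16.6 (-0.035), ND-MNLL (-0.031) and ND-B18 (-0.030) differed least among the lower genes of the arm. Each had a limma adjusted p of 1, and each interval included 0.

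ND-B14.5B, the NDUFC2 homolog, was the 1 gene of the membrane arm that was not lower. It was 12.21, 12.07, 12.14 and 12.10 on the diapause arrays and 11.96, 12.25, 12.12 and 12.01 on the non-diapause arrays. Non-diapause 1 and 4 were its lowest arrays and non-diapause 2 its highest. The difference of 0.045 had an interval of -0.12 to 0.21. It was 0.0022 without non-diapause 1 and 0.099 without non-diapause 2.

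ND-MLRQ was the other gene that was not lower, and both were below 0 only after centering on array medians, by the shift common to all genes. It encodes the homolog of NDUFA4, which was first described as part of complex I and in mammals was later assigned to cytochrome c oxidase. It was 14.77, 14.77, 14.71 and 14.71 on the diapause arrays and 14.66, 14.73, 14.74 and 14.68 on the non-diapause arrays. The groups overlapped, and the difference of 0.034 had an interval of -0.025 to 0.093. In this fit the interval left out the mean difference of the 25 genes, -0.055, which the intervals of the other 24 genes included. That depends on the probe sets in the fit. With a minimum mean of 6, limma gave ND-MLRQ an unadjusted p of 0.543 in place of 0.208. Its interval is wider there, and whether that interval includes -0.055 was not tested. With 1 array left out its difference ran from 0.021 to 0.046.

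**Figure D3:**
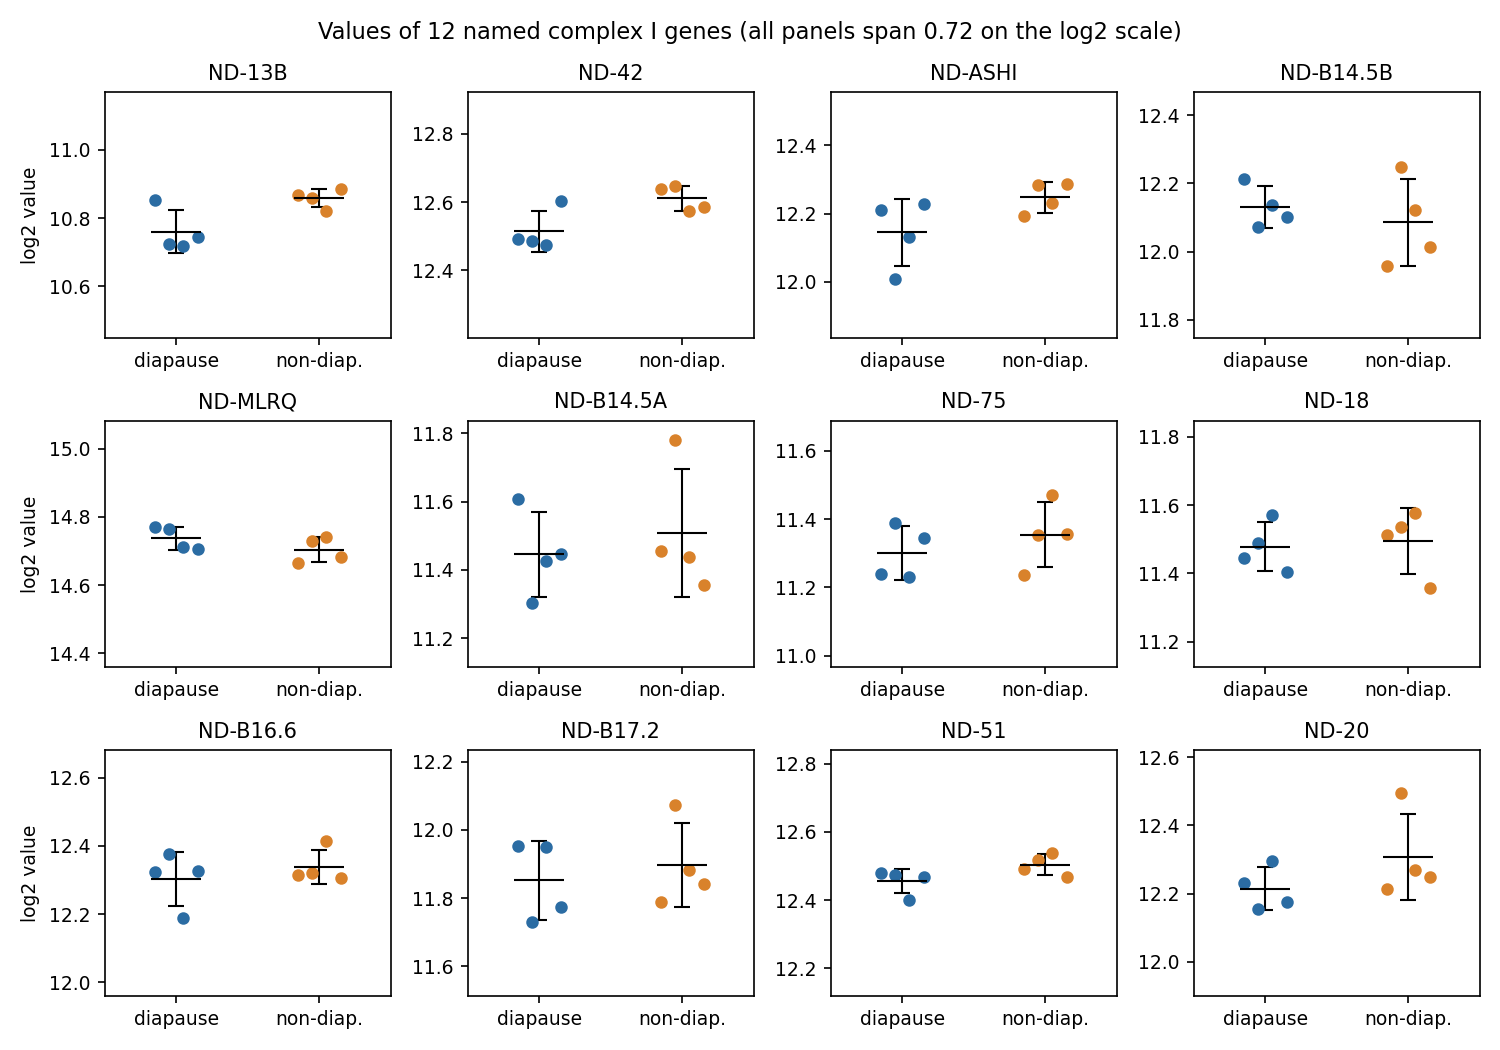
Log2 values of 12 complex I genes on each array, diapause in blue and non-diapause in orange, replicates 1 to 4 from left to right, with mean and SD in black. The genes are those with the smallest p, the largest differences, the largest departures from the complex mean, and the core subunits, and the groups overlap in each panel.

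How far a gene departed from the complex was measured as the SD over the 8 arrays of its deviation after the mean deviation of the 25 genes was taken away. This SD had a median of 0.059. It was smallest for ND-ACP (0.019) and ND-13A (0.028), which followed the complex mean most closely. The largest were those of ND-B14.5A (0.11), ND-75 (0.092), ND-18 (0.081), ND-B16.6 (0.077) and ND-B17.2 (0.075). These departures did not follow the groups. ND-B14.5A departed from the complex by 0.20 on non-diapause 2 and by 0.11 on diapause 1, and by -0.11 on non-diapause 4 and -0.10 on diapause 2.

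ND-75 and ND-B16.6, the GRIM-19 homolog, departed in the other sense on some of these arrays. ND-75 was 0.13 above the complex on diapause 2 and 0.10 above it on non-diapause 3, and ND-B16.6 was 0.12 and 0.055 above it there. ND-B16.6 itself was 12.32, 12.38, 12.19 and 12.33 on the diapause arrays and 12.32, 12.32, 12.41 and 12.30 on the non-diapause arrays. Its lowest value was on diapause 3 and its highest on non-diapause 3. The difference of -0.035 was 0.0033 without diapause 3 and -0.0095 without non-diapause 3. ND-18 was 11.45, 11.49, 11.57 and 11.40 on the diapause arrays and 11.51, 11.53, 11.58 and 11.36 on the non-diapause arrays. The array numbered 4 was the lowest in each group, and the groups overlapped over nearly their whole range.

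ND-MLRQ was the 1 measured gene whose departures separated the groups. Its departures were 0.029, 0.11, 0.019 and 0.019 on the diapause arrays and -0.037, -0.096, -0.019 and -0.027 on the non-diapause arrays. This quantity does not change when an array is shifted as a whole. Of all bright probe sets, 2.88% were separate and higher in diapause by the same measure and 1.25% separate and lower, so that 1 of 25 genes was not far from the background.

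Of the 7 dim genes, 6 lay at the floor or close to it and have no order there. These were 5 copies of core or accessory subunits, ND-20L, ND-24L, ND-51L1, ND-51L2 and ND-B14.5AL, and ND-B8, the homolog of NDUFA2. Duplicate respiratory genes of Drosophila are often active mainly in testis, and these heads were female, but ND-B8 is no such copy. Whether a floor value came from absent RNA or from a probe set that does not report it was not tested. ND-24L, ND-51L1, ND-51L2 and ND-B8 never rose more than 0.01 above the floor. The highest value was 2.20 for ND-20L, on non-diapause 2, and 2.18 for ND-B14.5AL, on non-diapause 3. ND-B12, the NDUFB3 homolog, was measured at 4.79 ± 0.04 on the diapause arrays and 4.79 ± 0.01 on the non-diapause arrays, a difference of -0.0007 with an interval of -0.050 to 0.048.

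For the 2 genes with more than 1 probe set, the other probe sets were lower in diapause too. Those of ND-ACP differed by -0.094 and -0.069, against -0.040 for the brightest, and the dimmer probe set of ND-B17 by -0.19 (interval -0.49 to 0.12) against -0.091. For 6 of the 25 measured genes, ND-15, ND-19, ND-20, ND-B14.7, ND-MNLL and ND-PDSW, the probe set was of the type whose probes can match more than 1 transcript, so that their signal may include related sequences.

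Assembly factors, which help to build complex I without being part of it, were described through a list of 4. All 4 were lower, with a median of -0.068 and 0 at unadjusted p under 0.05. CIA30, the NDUFAF1 homolog, was 8.86 ± 0.06 on the diapause arrays and 8.93 ± 0.09 on the non-diapause arrays (-0.073). sicily, the NDUFAF6 homolog, differed by -0.064, Nubpl, which delivers iron-sulfur clusters to complex I, by -0.049, and ECSIT by -0.14.

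The other respiratory complexes gave smaller median differences. Of complex II 2 of 3 genes were lower (median -0.019), of complex III 5 of 7 (-0.018), of cytochrome c oxidase 8 of 8 (-0.040) and of ATP synthase 9 of 13 (-0.026). Of the 13, 2 were dim, and of the 11 measured genes 9 were lower (-0.034). Whether complex I differs from them was not tested. At unadjusted p under 0.05 there were 2 of the 31 genes in these lists, both of ATP synthase and lower. Of the bright probe sets 4.7% were lower at that threshold, so that 2 of 31 was not far above it. ATPsynD was 12.56, 12.54, 12.58 and 12.56 on the diapause arrays and 12.69, 12.71, 12.67 and 12.68 on the non-diapause arrays (-0.13, limma adjusted p = 0.0743). It was the 1 gene of the respiratory lists whose groups did not overlap, where 3.17% of the bright probe sets were separate and lower. ATPsynCF6 differed by -0.13 (limma adjusted p = 1).

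On the arrays themselves, the mean of complex II, of cytochrome c oxidase and of ATP synthase was highest on non-diapause 2, like that of complex I. The mean of complex III was highest on non-diapause 3 at 12.25. Non-diapause 1 was the lowest array for complexes II, III and IV and diapause 2 for complex I and ATP synthase. Group means of the measured genes, 11 of them for ATP synthase, differed by -0.016 for complex II, -0.018 for complex III, -0.039 for cytochrome c oxidase and -0.035 for ATP synthase. For each of the 4, the SD of at least 1 group was as large as its difference or larger, and the groups overlapped.

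**Figure D4:**
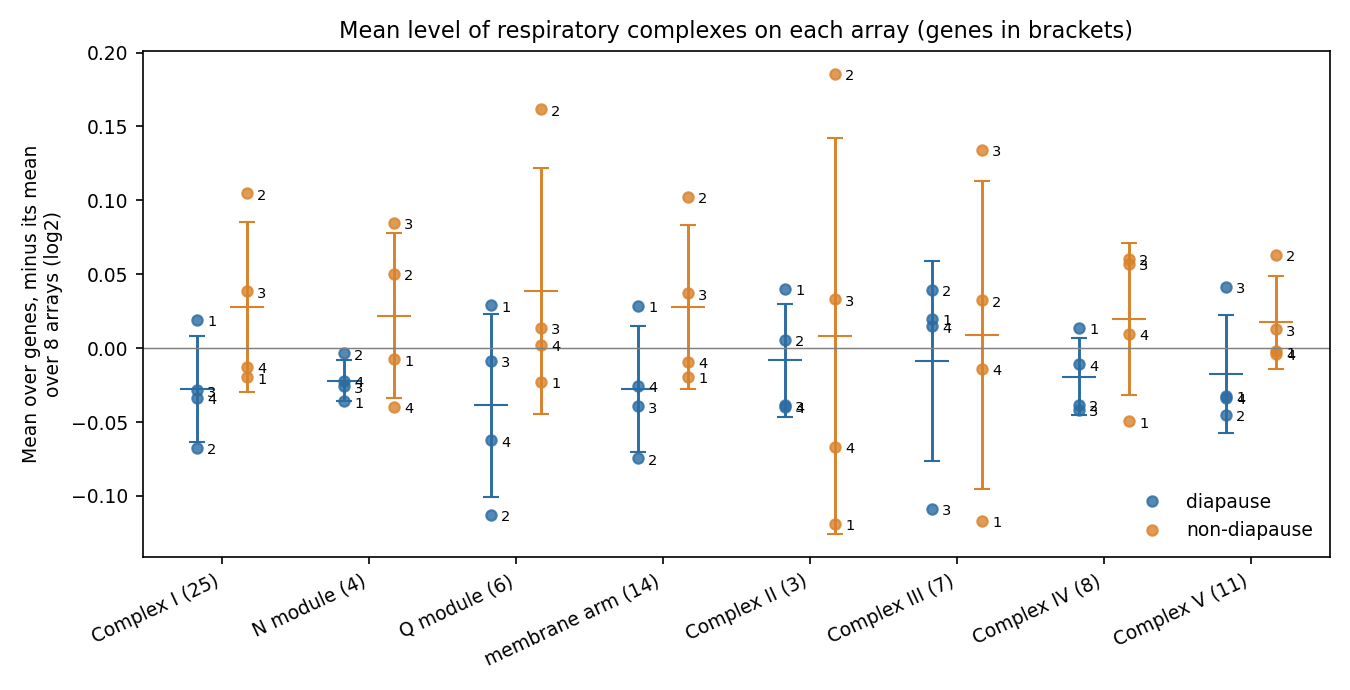
Mean log2 level of the measured genes of each respiratory complex and of the 3 parts of complex I on every array, minus its own mean over the 8 arrays. Points are arrays with their replicate number, lines and bars the group mean and SD. Non-diapause 2 is the highest point for complex I, II, IV and V, and the diapause and non-diapause points overlap in each column.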

How the data were processed

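Total RNA of heads was measured on 8 Affymetrix Drosophila Genome 2.0 arrays (biotin-labeled cRNA from 6 µg of RNA). The values deposited by the authors are log2 expression levels, which the submitters' processing notes credit to GCRMA. Its version was not given in the sources used here. The method corrects background from probe sequence, normalizes by quantiles and summarizes probes, which flattens dim probe sets to a common floor. No further normalization was applied. Groups and replicate numbers came from the sample titles.

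The groups were compared in R 4.3.3 by lmFit and eBayes of limma 3.58.1 (2-sided), the tool of the study, in 1 fit over 18769 probe sets after AFFX controls were left out, with Benjamini-Hochberg adjustment over all of them. The step was tested on simulated data. Symbols came from the platform annotation, and all 32 members matched the reference gene table by identifier. A measured gene had a mean over the 8 arrays of at least 6. Values on every array were given for members with unadjusted p under 0.05, the 3 largest differences in each direction, the 5 largest departures from the complex mean and the core subunits. The members, lists and rules were chosen with earlier results of these data known, so no test of a list was made. The number of arrays limits the precision. Alternatives were a replicate block, other variance models, normalizations, array weights, filters on dim probe sets, all probe sets of a gene, and each array left out. Promoter and protein sequences were not used here.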

Additional observations from a re-analysis of the deposited data

Results flagged for a closer look

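Single arrays stood apart from the other 3 of their group in 6 of 54 groups of 4 values, where chance gives about 1 in 20. The genes share the same arrays, so the 54 groups are not separate observations. Whether the 6 are more than chance gives cannot be judged from this count. On diapause 2, ND-13A was 11.64 against 11.70 on the other 3 arrays, and ND-19 was 11.09 against 11.29 to 11.30. ND-42 was 12.60 on diapause 4 against 12.48 to 12.49, and ND-51 was 12.40 on diapause 3 against 12.47 to 12.48. On non-diapause 3, ND-B16.6 was 12.41 against 12.30 to 12.32, and ND-B18 was 11.17 against 11.24 to 11.25. The gaps were at most 0.20 on the log2 scale, and neither mean of the complex was among these 6.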

How the results depend on the processing

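The median difference of the 32 members was -0.050 and stayed below 0 under every alternative run, from -0.064 to -0.026 with 1 array left out and at -0.11 after centering on array medians, where the mean difference of -0.044 was also -0.11 (-0.056 to -0.023 with 1 array left out). That centering moved each gene, and the median of all probe sets, by -0.062. Centering on probe sets above a mean of 10 moved them by -0.024. Between 22 and 32 members were lower under the alternatives. The number of members at unadjusted p under 0.05, 2, was 1 with the replicate block, 0 with a robust trended prior, 0 with a minimum mean of 6 or of 4, 7 after centering on array medians, 9 after centering on probe sets above a mean of 10, and 1 without diapause 3 and non-diapause 3 (the last 2 fits were chosen after seeing the data). With 1 array left out it was 0 to 2, namely 0 without diapause 2 or non-diapause 2, and 1 without diapause 3, diapause 4 or non-diapause 1. Of the 9, 7 were measured genes, and the others were dim genes at the floor, whose centered values carry only the shift of the array. In these fits 0 measured members had an adjusted p under 0.05. The background rose with centering too. At unadjusted p under 0.05, 10.9% of the bright probe sets were lower after centering on array medians. It was 6.95% after centering on probe sets above a mean of 10, against 4.7% in the main fit. Over all probe sets, the count at adjusted p under 0.05 was 0, and 2 after a second quantile normalization, 1 after centering on array medians, 4 with array weights, 3 after centering on probe sets above that mean, and 0 to 2 with 1 array left out.

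After centering on array medians ND-B14.5B was -0.017 and ND-MLRQ -0.028, which is the shift common to all genes. Directions turned for genes with small differences when arrays were left out. Without diapause 3 and non-diapause 3 ND-75 was 0.0089 and ND-B16.6 0.028. With 1 array left out, ND-B14.5B ran from 0.0022 to 0.099, ND-B14.5A from -0.12 to 0.030, ND-18 from -0.064 to 0.0094, ND-B16.6 from -0.059 to 0.0033 and ND-B17.2 from -0.081 to 0.014 (-0.083 without diapause 3 and non-diapause 3), and ND-75 ran from -0.093 to -0.015. ND-13B and ND-42, the members at unadjusted p under 0.05, stayed lower in every fit. The cause was not tested. Same-numbered arrays had correlations of -0.62 to 0.058 in their deviations from the group means over 7593 probe sets. This gave no sign of pairing by replicate number, but it cannot show that same-numbered arrays were handled apart. With the replicate block ND-13B alone kept an unadjusted p under 0.05 among members.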
